A study of Bos taurus and Sus scrofa with 10 samples.

Results

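Histone lysine demethylases are enzymes that remove methyl groups from histone tails. The 10 genes described here are KDM1A, KDM1B, KDM2B, KDM3A, KDM4A, KDM4B, KDM4C, KDM5A, KDM5B and KDM6B, taken by symbol. All 10 were among the 22845 gene rows of the cow table, and 8 were among the 21867 rows of the pig table, where no row carried the symbol KDM1B or KDM6B. Each symbol had 1 row.

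RNA was sequenced from oocytes and from embryos of 2-4 cells, of 8-16 cells, at the morula and at the blastocyst stage, in cow (Bos taurus) and pig (Sus scrofa). There were 10 libraries, 1 for every combination of stage and species, none of them treated, and no difference below has a replicate check. Breed, the number of oocytes or embryos per library, and whether embryos grew in the animal or in culture are not given in the sources used here. In whole embryos a smaller number of cells and less RNA per cell cannot be told apart.

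KDM1A and KDM1B use a flavin cofactor, and the other members belong to the Jumonji family, which needs iron and 2-oxoglutarate. Methylation of lysine 4 of histone H3 (H3K4) goes with active promoters, methylation of lysine 9 (H3K9) and lysine 27 (H3K27) with silent chromatin, and methylation of lysine 36 (H3K36) with transcribed gene bodies. In mammals these marks are rebuilt between fertilisation and implantation, while RNA stored in the oocyte is replaced by RNA of the embryo, a change centred on the 8-16 cell stage in cow and on the 4 cell stage in pig.

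Library totals ran from 3002751 reads (pig morula) to 14182046 reads (cow blastocyst). Levels are reads per 1000000 reads of the library (RPM). RPM is not divided by gene length, so levels of different genes are not set against each other, and cow and pig levels stand side by side without comparison, since each table was scaled on its own. Intervals in parentheses are 95% Wilson intervals for a level, and 95% exact binomial intervals for a fold or a ratio of reads. They cover counting error only, because the cDNA was amplified and reads are not independent molecules. Where level intervals of neighbouring stages overlap, the interval of the fold between them can still exclude no change. A count of 0 reads allows a level of up to 3 reads, which was 0.212 RPM for the cow blastocyst, the deepest library, and 0.999 RPM for the pig morula, the shallowest. Mitochondrial genes held between 2.74% (cow 2-4 cell) and 30.2% (cow blastocyst) of the reads, and a larger share lowers the RPM of all other genes. The stage labels were checked against marker genes. The summed level of 14 oocyte markers went from 7521 RPM in the cow oocyte to 0.353 RPM in the cow blastocyst, with 12 of 14 at 0 reads there, and from 10334 to 39.7 RPM in pig, with 8 of 14 at 0 reads. Summed blastocyst markers, 11 genes in cow and 12 in pig, went from 74.6 to 4421 RPM and from 43.5 to 9543 RPM. At the stages between, the oocyte marker sum was 934 RPM in the cow 8-16 cell library and 133 RPM in the cow morula. In pig it was still 5223 RPM at the 8-16 cell stage, and 325 RPM in the morula. The part of this difference in the cow and pig steps below was not tested. Markers of cumulus cells, the somatic cells around the oocyte, summed to 549, 470.0, 115, 65.1 and 1018 RPM over the cow stages, with between 4 and 8 of 15 at 0 reads, and to 209, 175, 265, 402 and 2169 RPM over the pig stages, with between 3 and 5 of 12 at 0 reads. PTGS2, which is not specific to cumulus cells, made up 902 RPM of the cow and 1809 RPM of the pig blastocyst sum. The part of such cells in the values below was not tested.

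A change is the difference of log2(RPM + 1) between both stages, a scale that understates the change of low genes. A gene was compared when it reached 1 RPM in one of both libraries, and called higher or lower at an absolute change of 2 or more, 4-fold on that scale. "Rose" and "fell" below refer to these calls, which are a rule of size and not a test.

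Both species ended with more RNA of KDM5B and KDM4A in the blastocyst than in the oocyte, relative to all reads. KDM2B also rose in cow and KDM4C in pig, and KDM1B fell in cow. Over the whole course 3 of 10 members rose in cow, KDM2B, KDM4A and KDM5B, where 21.8% of the 12738 genes compared were called higher. KDM1B was the 1 member of 10 that fell, where 18.4% of genes were called lower. In pig 3 of 8 members rose, KDM4A, KDM4C and KDM5B, beside 26.0% of 12512 genes, and 0 of 8 fell, beside 19.2%. With 10 and 8 members these shares are near the background, so the counts say nothing particular about the members as a group. The median change of the members was 1.13 in cow and 1.01 in pig, against 0.18 and 0.43 over all genes compared. Scaling to reads of non-mitochondrial genes moved the cow median of all genes to 0.59 and that of the members to 1.55. Quantile normalisation moved the median of all genes to -0.02 in cow and 0.02 in pig, and that of the members to 1.33 and 0.67. Small changes therefore cannot be separated from a shift of scale.

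**Figure D1:**
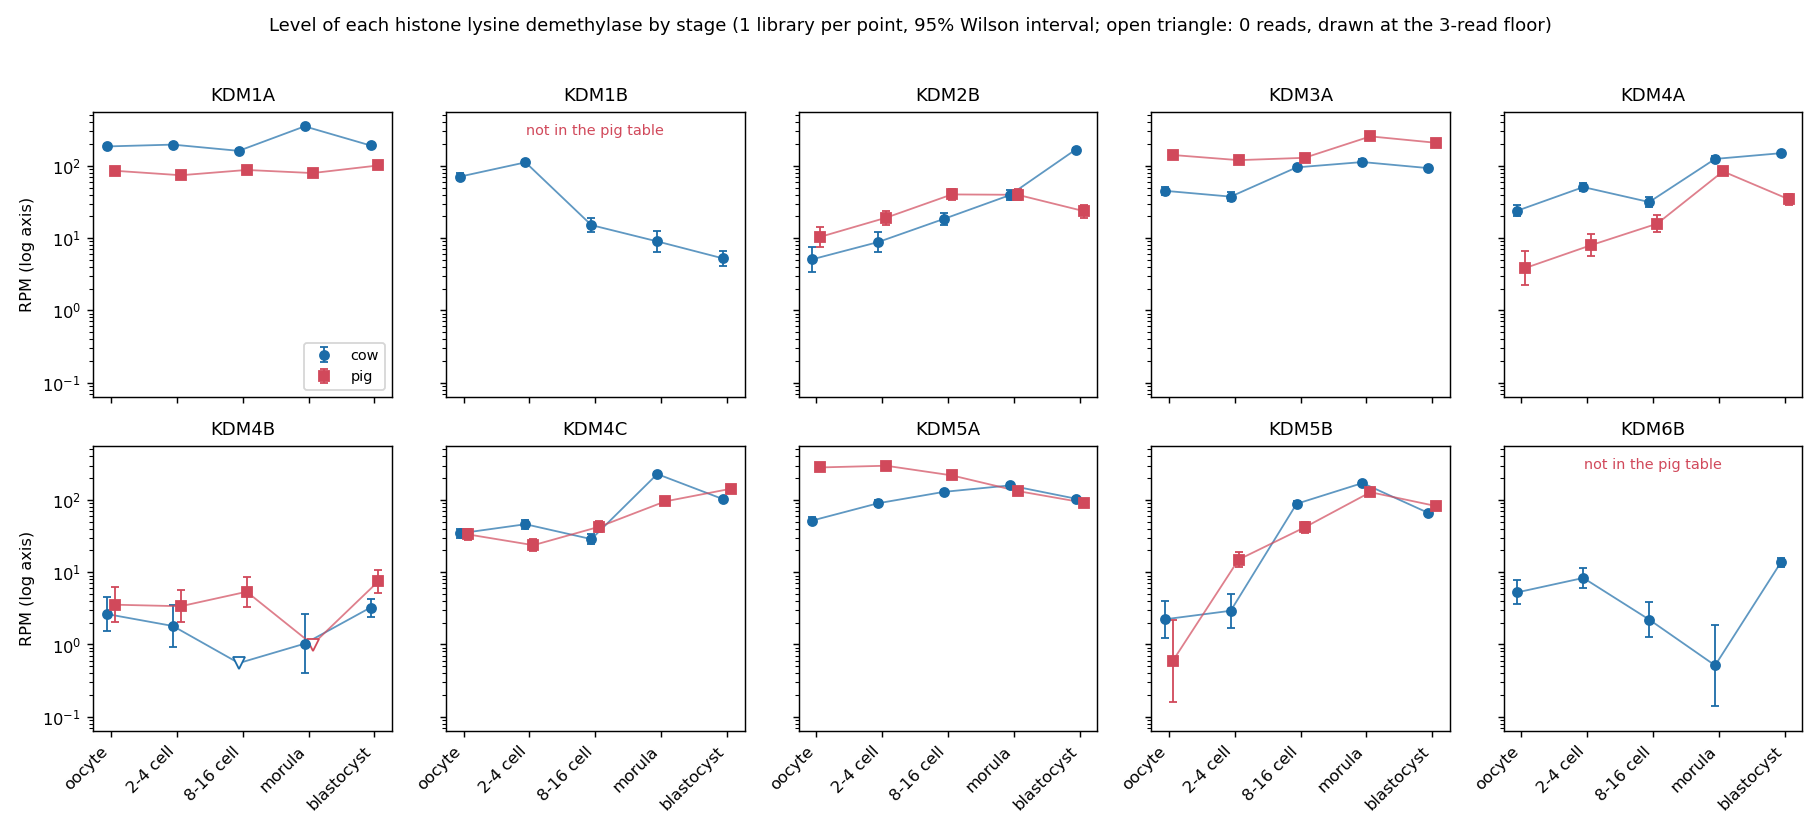
Level of each demethylase in RPM on a log axis against stage, for cow (circles) and pig (squares). Each point is 1 library with its 95% Wilson interval, and an open triangle marks 0 reads, drawn at the limit of 3 reads. KDM5B climbs from 2.23 RPM in the cow oocyte and 2 reads in the pig oocyte to 172 and 128 RPM in the morula, while KDM1B goes from 112 RPM at the cow 2-4 cell stage to 5.22 RPM in the blastocyst.

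Of the H3K4 demethylases, KDM5B had the widest course in both species. KDM5B removes tri- and dimethyl marks from H3K4 and lies on the minus strand of cow chromosome 16, 55241513 to 55282607 (build UMD3.1), and of pig chromosome 10, 24739157 to 24831494 (build Sscrofa11.1). In cow its levels were 2.23 RPM in the oocyte (1.25 to 3.996, 11 reads), 2.93 at the 2-4 cell stage, 88.5 at the 8-16 cell stage, 172 in the morula (159 to 185) and 66.1 in the blastocyst. The intervals of the first 2 stages overlapped, and those of the later 3 stages lay apart from them and from each other. KDM5B rose 30.2-fold (17.5 to 57.2) between the cow 2-4 cell and 8-16 cell libraries, a change of 4.51, and was 29.6-fold (16.5 to 59.6) above the oocyte in the blastocyst. In pig its levels were 0.592 RPM in the oocyte (0.162 to 2.16, 2 reads), 15.0 at the 2-4 cell stage, 41.7 at the 8-16 cell stage, 128 in the morula and 82.3 in the blastocyst (73.6 to 92.0), with no interval overlapping the next. The pig rise was called already from the oocyte to the 2-4 cell stage, with a change of 3.33 and a ratio of 25.3 (6.71 to 214) that rests on 2 reads in the oocyte, and it was not called with a pseudocount of 5 RPM. From oocyte to blastocyst the pig change of KDM5B was 5.71. An unnamed gene on the opposite strand shares 1228 bases with pig KDM5B and had 0 reads at the first 3 stages, 3.33 RPM in the morula and 14.7 RPM in the blastocyst. Strand handling is not given in the sources used here, so reads from those bases could belong to either gene, and the part of this overlap was not tested.

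KDM5A, the paralog of KDM5B with the same substrate, had a flatter course, and its direction over the whole course differed between the species. It lies on the minus strand of cow chromosome 5, 107730640 to 107791602, and of pig chromosome 5, 67629380 to 67716625. The cow levels of KDM5A were 51.9 RPM in the oocyte (45.9 to 58.7), 90.1 at the 2-4 cell stage, 129.6 at the 8-16 cell stage, 159 in the morula (147 to 172) and 104 in the blastocyst, so the oocyte library was lowest and the morula highest. A gene model on the opposite strand that shares 511 bases with cow KDM5A had at most 8.72 RPM. In pig KDM5A had 282 RPM in the oocyte, 298 at the 2-4 cell stage, 219 at the 8-16 cell stage, 133 in the morula and 92.0 in the blastocyst. The first 2 pig intervals overlapped, and each later stage lay below the one before. From oocyte to blastocyst the change of KDM5A was 0.99 in cow, 2.01-fold up (1.76 to 2.30), and -1.61 in pig, 3.07-fold down (2.71 to 3.48), neither of which met the call.

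Within each library the reads of KDM5B were set against those of KDM5A, a ratio that does not depend on the total. In cow there were 4.30 KDM5B reads per 100 KDM5A reads in the oocyte (2.12 to 7.82), 3.25 at the 2-4 cell stage, 68.3 at the 8-16 cell stage, 108 in the morula (96.6 to 121) and 63.4 in the blastocyst. The pig ratios were 0.210 in the oocyte (0.0254 to 0.760), 5.03, 19.0, 96.5 in the morula (83.7 to 111) and 89.5 in the blastocyst (76.5 to 105). In both species the ratio was lower before the 8-16 cell stage than from that stage on, and the pig morula and blastocyst intervals overlapped. In cow the larger step up fell between the 2-4 cell and 8-16 cell libraries, with a smaller one to the morula. The rise was spread over 3 steps in pig.

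KDM1A (LSD1) and KDM1B (LSD2) remove mono- and dimethyl marks from H3K4, and KDM1B is known in mouse for its need in growing oocytes, where maternal imprints are set. Cow KDM1B, on the minus strand of chromosome 23, 39166819 to 39204690, had 70.6 RPM in the oocyte (63.6 to 78.4), 112 at the 2-4 cell stage (102 to 122), 15.1 at the 8-16 cell stage, 8.98 in the morula and 5.22 in the blastocyst (4.16 to 6.55). The first 2 libraries were high and lay apart from the later 3, in which neighbouring intervals overlapped. KDM1B fell 7.39-fold (5.84 to 9.45) from the 2-4 cell to the 8-16 cell stage, a change of -2.81, and 13.5-fold (10.5 to 17.6) from oocyte to blastocyst, a change of -3.53. A ribosomal RNA gene inside its span had 0 reads in all 5 cow libraries.

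KDM1A, which also acts in the CoREST repressor complex, lies on the minus strand of cow chromosome 2, 130370509 to 130436531, and on the plus strand of pig chromosome 6, 80903358 to 80973632. Its cow levels were 185 RPM in the oocyte, 196 at the 2-4 cell stage, 161 at the 8-16 cell stage, 351 in the morula (333 to 370.4) and 191 in the blastocyst. The morula library stood above the other 4, which lay between 161 and 196 RPM, and the oocyte and blastocyst intervals overlapped (1.03-fold, 0.956 to 1.11). In pig KDM1A had 85.3 RPM in the oocyte, 73.9 at the 2-4 cell stage, 87.5 at the 8-16 cell stage, 79.3 in the morula and 101 in the blastocyst. The pig stages lay close together, and of consecutive stages the intervals of the morula (69.8 to 89.99) and the blastocyst (91.4 to 112) were the ones that did not overlap. Pig KDM1A shares 372 bases with LUZP1 on the opposite strand, whose own level was between 268 and 357 RPM. Against 100 reads of KDM1A the cow libraries held 38.1 reads of KDM1B in the oocyte (33.6 to 43.2), 56.8 at the 2-4 cell stage, 9.38 at the 8-16 cell stage, 2.55 in the morula (1.77 to 3.57) and 2.73 in the blastocyst. The balance of both LSD genes thus moved by a factor of 13.9 between oocyte and blastocyst, with KDM1A near its oocyte level.

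**Figure D2:**
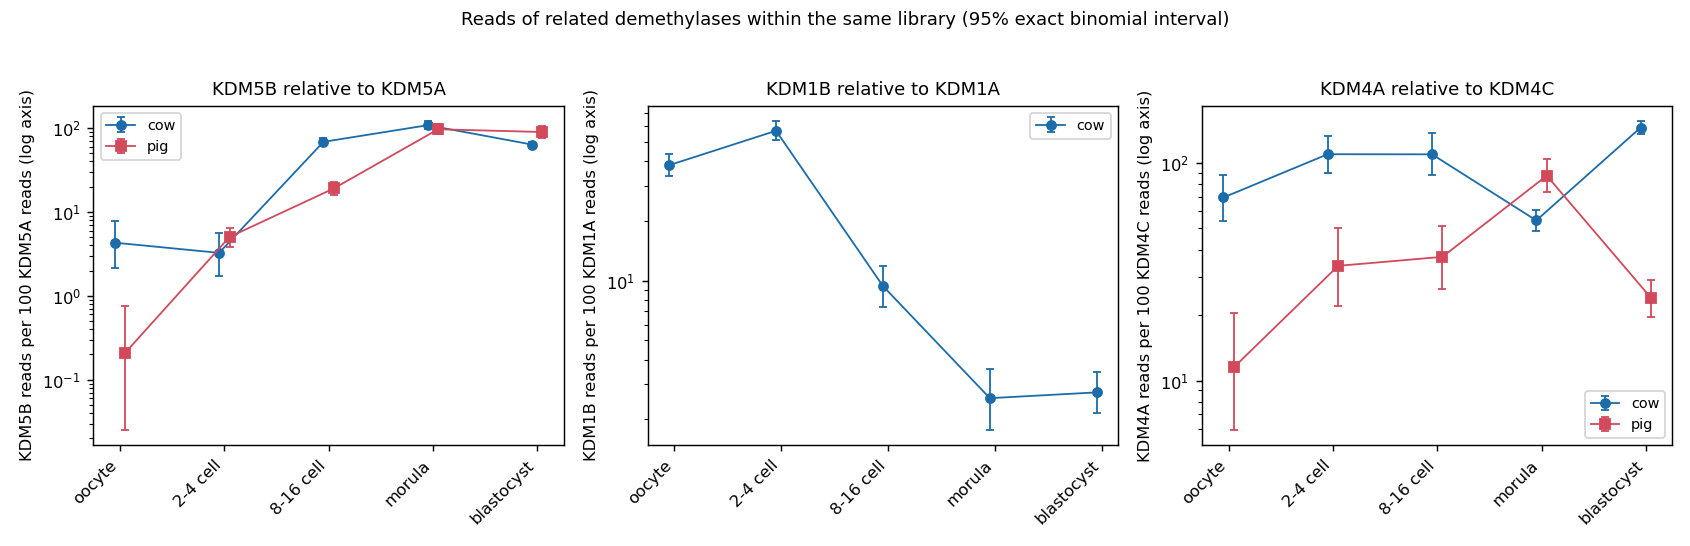
Reads of 1 demethylase per 100 reads of a related one in the same library, on a log axis, by stage for cow (circles) and pig (squares), with 95% exact binomial intervals. KDM5B relative to KDM5A goes up in both species, KDM1B relative to KDM1A goes down in cow, and KDM4A relative to KDM4C is low in the morula in cow (54.4, overlapping the oocyte interval) and high there in pig (87.5).

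The summed level of the H3K4 demethylases gives the reads of all of them and weighs long genes more. Over the 4 cow genes it was 310 RPM in the oocyte, 401 at the 2-4 cell stage, 394 at the 8-16 cell stage, 691 in the morula (665 to 717) and 367 in the blastocyst. Over the 3 pig genes it was 368, 387, 348, 340.4 and 275 RPM (259 to 293 in the blastocyst). The cow sum was highest in the morula, with KDM1A holding 50.9% of it. The pig sum was lowest in the blastocyst, and the share of KDM5A in it went from 76.7% in the oocyte to 39.0% in the morula.

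KDM2B, which demethylates H3K36, binds unmethylated CpG islands and brings the Polycomb complex PRC1.1 to them, had its highest level at different stages in the species. It lies on the plus strand of cow chromosome 17, 55899388 to 56017498, and of pig chromosome 14, 31057005 to 31203505. In cow KDM2B had 5.07 RPM in the oocyte (3.44 to 7.49), 8.79 at the 2-4 cell stage, 18.4 at the 8-16 cell stage, 39.2 in the morula and 168 in the blastocyst (161 to 175). Each cow library stood above the one before, although the first 2 intervals overlapped. KDM2B rose 4.28-fold (3.63 to 5.07) from the cow morula to the blastocyst, a change of 2.07, and 33.1-fold (22.4 to 51.2) over the whole course, a change of 4.80. The last step is close to the call limit and was not called with a pseudocount of 5 RPM. In pig the levels of KDM2B were 10.4 RPM in the oocyte, 19.1 at the 2-4 cell stage, 40.1 at the 8-16 cell stage, 39.6 in the morula and 23.6 in the blastocyst. The pig 8-16 cell and morula libraries were highest with overlapping intervals, and no pig step of KDM2B met the call. Pig KDM2B shares 1477 bases with RNF34 on the opposite strand, whose level went from 300.5 RPM in the oocyte to 17.7 RPM in the blastocyst. The part of these shared bases in the pig values was not tested.

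KDM3A removes mono- and dimethyl marks from H3K9, and KDM4A, KDM4B and KDM4C remove trimethyl marks from H3K9 and H3K36. In both species 1 gene of this group rose between the 8-16 cell stage and the morula, KDM4C in cow and KDM4A in pig. Beside them 6.67% of all cow genes and 12.0% of all pig genes were called higher. Pig KDM4B fell at this step, beside 11.3% of all pig genes. KDM4C lies on the minus strand of cow chromosome 8, 37980606 to 38175047, and of pig chromosome 1, 215071419 to 215507712. Its cow levels were 34.5 RPM in the oocyte, 46.2 at the 2-4 cell stage, 28.7 at the 8-16 cell stage (24.6 to 33.6), 229 in the morula (214 to 244) and 103 in the blastocyst. The cow morula library was highest and the blastocyst next, and both lay apart from the first 3. KDM4C rose 7.96-fold (6.71 to 9.49) from the cow 8-16 cell stage to the morula, a change of 2.95. In pig KDM4C had 33.5 RPM in the oocyte, 23.7 at the 2-4 cell stage, 42.6 at the 8-16 cell stage, 95.6 in the morula and 143 in the blastocyst (132 to 156). There the blastocyst was highest, and KDM4C rose 4.28-fold (3.49 to 5.29) over the whole pig course, a change of 2.06 that is close to the call limit and was not called at equal depth, with median of ratios scaling or with a pseudocount of 5 RPM. A U6 gene inside pig KDM4C had 0 reads in all 5 pig libraries.

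KDM4A, whose maternal product is known in mouse to keep H3K4 domains of the oocyte free of H3K9 marks, lies on the minus strand of cow chromosome 3, 102926388 to 102963687, and of pig chromosome 6, 167596104 to 167642374. Cow KDM4A had 23.9 RPM in the oocyte (19.99 to 28.7), 50.7 at the 2-4 cell stage, 31.5 at the 8-16 cell stage, 124 in the morula and 149 in the blastocyst (143 to 156). The morula and blastocyst libraries were high and lay apart from the first 3. KDM4A rose 6.24-fold (5.18 to 7.58) from cow oocyte to blastocyst, a change of 2.59. The cow step to the morula had a change of 1.95, just under the call. In pig KDM4A had 3.85 RPM in the oocyte (2.25 to 6.59, 13 reads), 7.97 at the 2-4 cell stage, 15.8 at the 8-16 cell stage, 83.6 in the morula (73.9 to 94.6) and 34.3 in the blastocyst. The pig morula library was highest, and the first 2 intervals overlapped. KDM4A rose 5.29-fold (3.89 to 7.32) from the pig 8-16 cell stage to the morula, a change of 2.33, and 8.92-fold (5.03 to 17.2) over the whole pig course, a change of 2.86.

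KDM4A and KDM4C, which share substrates, shifted against each other in opposite ways from the 8-16 cell stage to the morula. Per 100 reads of KDM4C the cow libraries held 69.4 (54.4 to 88.3), 109.8, 109.6 (87.7 to 137), 54.4 (48.6 to 60.9) and 146 (136 to 156) reads of KDM4A, in stage order. In pig the ratios were 11.5 (5.94 to 20.5), 33.7, 37.0 (26.2 to 51.6), 87.5 (73.5 to 104) and 24.0 (19.6 to 29.1). From the 8-16 cell stage to the morula the ratio went down in cow and up in pig, with intervals apart. The cow morula interval overlapped that of the cow oocyte, and the pig morula interval lay above those of the other 4 pig libraries.

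KDM3A lies on the minus strand of cow chromosome 11, 48248720 to 48304335, and of pig chromosome 3, 58299723 to 58355000. Its cow levels were 45.03 RPM in the oocyte, 37.4 at the 2-4 cell stage (32.1 to 43.5), 94.99 at the 8-16 cell stage, 113 in the morula (103 to 124) and 92.8 in the blastocyst. The cow libraries formed a low pair of early stages and a high set of 3 later stages, and in the high set the morula lay above the blastocyst (87.9 to 97.9), while the 8-16 cell interval overlapped both. In pig KDM3A had 141 RPM in the oocyte, 119.6 at the 2-4 cell stage, 129 at the 8-16 cell stage, 255 in the morula (238 to 274) and 208 in the blastocyst (194 to 223). The last 2 pig stages lay above the first 3, whose neighbouring intervals overlapped. No change of KDM3A met the call in either species.

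KDM4B had few reads in all libraries. It lies on the minus strand of cow chromosome 7, 20309021 to 20389673, and of pig chromosome 2, 73746494 to 73889865. Cow KDM4B had 2.64 RPM in the oocyte (13 reads), 1.80 at the 2-4 cell stage (8 reads), 0 reads at the 8-16 cell stage, which allows up to 0.552 RPM, 1.03 in the morula (4 reads) and 3.24 in the blastocyst (46 reads). The 2-4 cell interval (0.913 to 3.56) lay above that of the 8-16 cell stage, the other consecutive stages overlapped, and no cow change met the call. In pig KDM4B had 3.55 RPM in the oocyte, 3.38 at the 2-4 cell stage, 5.37 at the 8-16 cell stage (17 reads), 0 reads in the morula, which allows up to 0.999 RPM, and 7.51 in the blastocyst (28 reads). The pig morula library was the low one. With 3 reads put in place of 0, it was 5.37-fold lower than the 8-16 cell library and 7.51-fold lower than the blastocyst library. These folds leave out the counting error of the 17 and 28 reads and are not lower limits. Neither step was called with a pseudocount of 5 RPM. The morula is also the shallowest library, and the other 4 pig stages had overlapping intervals.

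Summed over the 4 H3K9 demethylases the cow level was 106 RPM in the oocyte, 136 at the 2-4 cell stage, 155 at the 8-16 cell stage, 466 in the morula (446 to 488) and 348 in the blastocyst. The pig sum was 182, 155, 193, 434 in the morula (411 to 458) and 393 RPM in the blastocyst. Both species had a low level up to the 8-16 cell stage and a high level in the morula and blastocyst. KDM4C made up 49.0% of the reads of the group in the cow morula, and KDM3A made up 58.7% in the pig morula. These shares weigh long genes more and do not rank the genes.

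KDM6B (JMJD3), which removes di- and trimethyl marks from H3K27, had a row in cow, on the plus strand of chromosome 19, 28147259 to 28155406. Its levels were 5.27 RPM in the oocyte (26 reads), 8.34 at the 2-4 cell stage (37 reads), 2.21 at the 8-16 cell stage (12 reads), 0.513 in the morula (2 reads, 0.141 to 1.87) and 13.7 in the blastocyst (195 reads, 12.0 to 15.8). The blastocyst library lay above all others, and the 8-16 cell library (1.26 to 3.86) lay below the 2-4 cell library (6.05 to 11.5), a 3.77-fold difference (1.92 to 7.95) that did not meet the call. KDM6B rose from the cow morula to the blastocyst with a change of 3.29 and a ratio of 26.8 (7.32 to 223) that rests on 2 reads in the morula, and this step was not called with a pseudocount of 5 RPM.

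Step by step, few members met the call. Between the cow oocyte and 2-4 cell libraries 0 of 10 members were called in either direction, beside 0.196% of genes called higher and 0.178% called lower. At the next cow step 1 of 10 rose (KDM5B) and 1 of 10 fell (KDM1B), beside 12.6% and 14.6%. Between the cow 8-16 cell stage and the morula 1 of 10 rose (KDM4C) and 0 of 10 fell, beside 6.67% and 5.15%. The last cow step had 2 of 10 higher (KDM2B and KDM6B) and 0 of 10 lower, beside 11.9% and 11.5%. For pig the first step had 1 of 8 higher (KDM5B) and 0 of 8 lower, beside 3.26% and 2.17%, and the second had 0 of 8 in either direction, beside 4.33% and 0.543%. At the pig step to the morula 1 of 8 rose (KDM4A) and 1 of 8 fell (KDM4B), beside 12.0% and 11.3%. The pig step to the blastocyst had 1 of 8 higher (KDM4B) and 0 of 8 lower, beside 13.8% in each direction. These counts are too small to set the members apart from the background. At 4 steps the share of higher genes among all calls moved by over 10 percentage points with the scaling, and median of ratios scaling turned the majority at the steps to the morula, from 56.4% to 47.1% in cow and from 51.7% to 43.9% in pig. For the first cow step 52.4% of the calls were higher, against 22.5% with median of ratios scaling and with quantile normalisation, and for the second cow step 46.5%, against 61.2% with median of ratios scaling. The pig shares were 60.0% for the first step, against 73.3% with median of ratios scaling, and 88.9% for the second, against 63.1% with quantile normalisation.

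**Figure D3:**
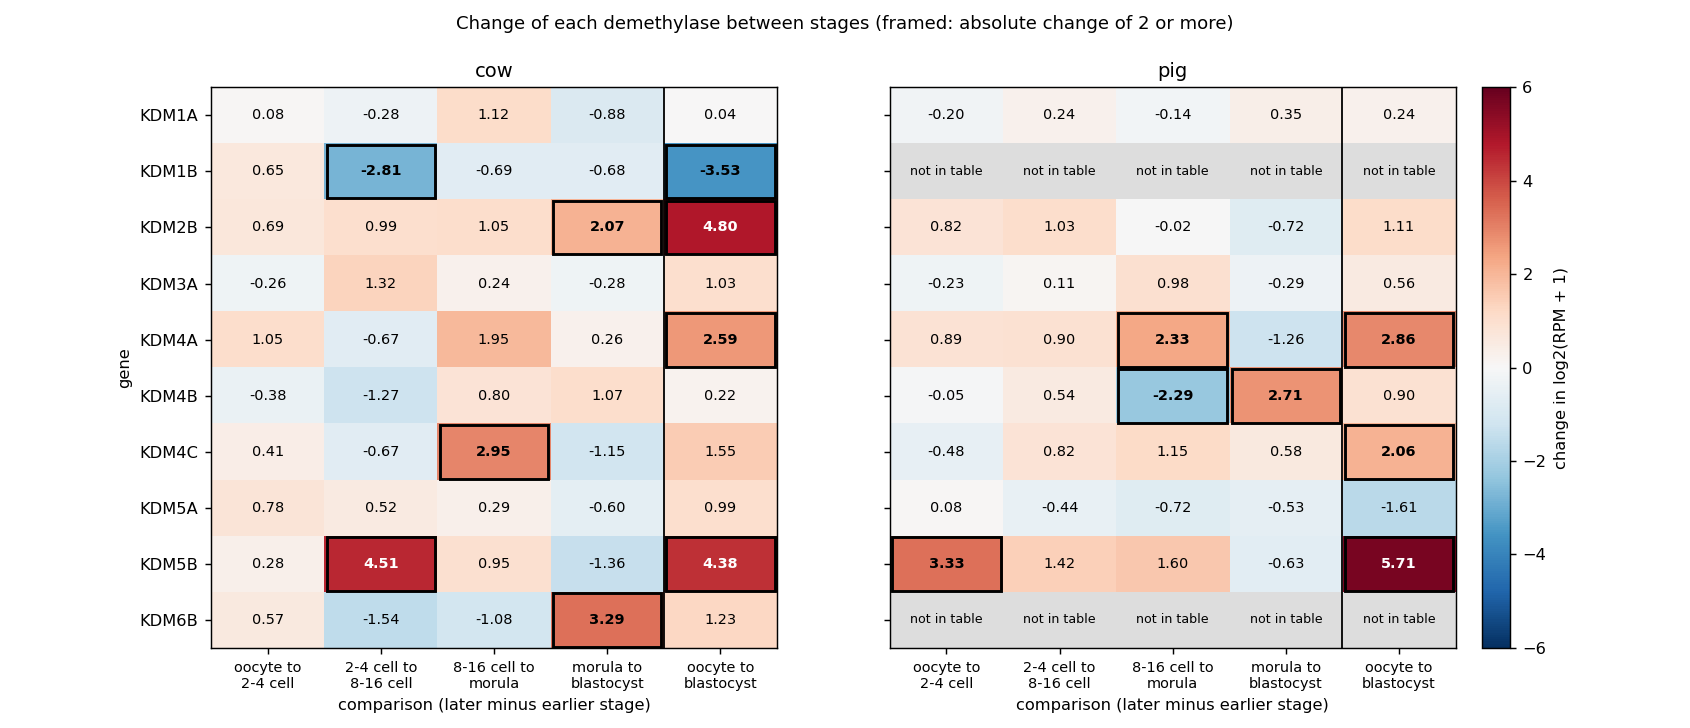
Change of log2(RPM + 1) of each demethylase for the 4 consecutive steps and, right of the line, from oocyte to blastocyst, in cow and pig. Red is higher and blue lower at the later stage, frames mark an absolute change of 2 or more, and grey cells are symbols with no row in the pig table. The largest values are 4.80 for KDM2B in cow and 5.71 for KDM5B in pig, and the lowest is -3.53 for KDM1B in cow.

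The stage with the highest level was the morula for 5 of 10 cow members (KDM1A, KDM3A, KDM4C, KDM5A and KDM5B), the blastocyst for 4 and the 2-4 cell stage for KDM1B. In pig it was the morula for 3 of 8 (KDM3A, KDM4A and KDM5B), the blastocyst for 3 (KDM1A, KDM4B and KDM4C), the 8-16 cell stage for KDM2B and the 2-4 cell stage for KDM5A. For cow KDM3A and KDM4B and for pig KDM1A, KDM2B, KDM4B and KDM5A the interval of the highest stage overlapped that of the next. No member had its highest value in the oocyte library of either species. Of the 8 members in both tables, 7 had a change of the same sign from oocyte to blastocyst in cow and pig, all but KDM5A, although cow KDM4B turned negative (-0.27) with quantile normalisation. At the consecutive steps the signs matched for 6, 3, 4 and 4 of 8, and the sign of 9 small step changes moved with the scaling. Summed over these 8 members the level was 351, 434, 553, 1188 and 877 RPM over the cow stages and 560.2, 561, 581, 814 and 692 RPM over the pig stages, highest in the morula in both.

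Other demethylases moved upward in part as well. From oocyte to blastocyst 6 of 11 compared rose in cow and 0 fell, beside 21.8% of all genes higher and 18.4% lower. The cow median change was 2.11 (0.63 over 13 genes with no minimum level). In pig 5 of 13 rose and 0 fell, beside 26.0% higher and 19.2% lower. The pig median was 0.50 (0.31 over 15 genes with no minimum level). KDM6A (UTX), an H3K27 demethylase on the X chromosome, went in cow from 5.07 RPM in the oocyte through 6.08, 69.6 and 415 to 453 RPM in the blastocyst. KDM5C, an X-linked relative of KDM5B, went from 9.94 through 12.6, 48.2 and 143 to 58.7 RPM in cow and from 1.78 through 5.32, 21.5 and 35.6 to 15.8 RPM in pig, and rose in both. KDM2A, the paralog of KDM2B, rose in cow from 20.9 through 39.2, 90.0 and 261 to 232 RPM. In pig UTY and KDM5D, the Y-linked copies of KDM6A and KDM5C, had 0 reads in the oocyte and reached 33.8 and 23.9 RPM in the blastocyst. UTY had 2.17, 13.6 and 27.3 RPM at the stages between, and KDM5D had 0 reads up to the 8-16 cell stage and 2.00 RPM (6 reads) in the morula. Reads shared between such near copies could be split either way by the counting, so these X and Y values are uncertain.

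Partners of the members were mixed. These counts are also from oocyte to blastocyst, where 21.8% of all genes were called higher and 18.4% lower in cow, and 26.0% and 19.2% in pig. The CoREST list holds the complex in which KDM1A works and also genes outside it, such as MTA2 and GFI1. Of this list 6 of 15 genes rose and 2 fell in cow, and 1 of 14 rose and 2 fell in pig. The medians were 0.04 (-0.18 with no minimum level) and -0.80. The cow rises include MTA2, the cow falls include GFI1, and the pig rise is MTA2, so these counts are not those of the complex alone. MTA2, better known as a subunit of the NuRD deacetylase complex, rose in both, from 4 reads in the cow oocyte (0.811 RPM) to 40.5 RPM and from 2 reads in the pig oocyte (0.592 RPM) to 102 RPM. GFI1, a repressor that recruits KDM1A, fell in cow from 99.2 RPM to 0 reads, and ZMYM3 rose there from 6.90 to 84.2 RPM. PHF21A, the subunit that reads unmethylated H3K4, fell in pig from 68.1 to 8.85 RPM, and pig HMG20B went from 28.7 through 67.9 RPM at the 8-16 cell stage to 15.8 RPM. Of PRC1.1, the complex of KDM2B, 2 of 10 genes rose and 2 fell in cow (median -1.35), and 1 of 7 rose and 3 fell in pig (median -0.40, and -1.35 over 6 genes with a minimum of 5 RPM). RYBP went from 20.1 RPM in the cow oocyte to 317 in the morula and 199 in the blastocyst, and from 80.2 to 741 and 269 RPM in pig. PCGF1, the subunit that defines the complex, fell in cow from 18.3 to 0.776 RPM. Cow BCORL1 went from 18.5 to 6.91 RPM, with 37.2 RPM at the 2-4 cell stage. In pig RNF2, a catalytic subunit of the complex, fell from 351 to 16.6 RPM, and BCORL1 from 20.7 to 2.68 RPM. RING1 was the 1 gene of the list that rose in pig, from 0 reads to 6.43 RPM. It also rose in cow, from 1 read to 4.65 RPM.

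The enzymes that write the same marks were mixed too, beside the same background of 21.8% higher and 18.4% lower in cow and 26.0% and 19.2% in pig. H3K4 methyltransferases and their core subunits had 2 of 16 higher and 3 lower in cow and 2 of 12 higher and 4 lower in pig, with medians of -0.31 (0.09 with scaling to non-mitochondrial gene reads and -0.14 with no minimum level) and -1.36. ASH2L fell in pig from 512 to 31.1 RPM, KMT2A from 196 to 26.3 RPM and KMT2E from 642 to 95.4 RPM. In cow WDR5 fell from 11.0 RPM to 3 reads, SETD7 rose from 1 read to 22.1 RPM, and SMYD3 went from 35.5 through 319 in the morula to 73.1 RPM. For H3K9 methyltransferases 0 of 8 rose and 4 fell in cow (median -1.90), and 0 of 3 were called in pig, with a median of -1.54 that was -0.03 over 5 genes with no minimum level. SUV39H2 fell in cow from 226 to 5.99 RPM and went in pig from 316 through 30.3 in the morula to 108 RPM. PRDM3, listed as MECOM, fell in cow from 19.3 RPM to 1 read, and in pig it had 0 reads in the oocyte and blastocyst and at most 5.05 RPM between. SETDB2 fell in cow from 56.4 to 12.5 RPM, with 214 RPM in the morula, and pig SETDB1 went from 480 to 124 RPM, short of the call.

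Among H3K27 methyltransferases and their PRC2 partners 2 of 7 rose and 2 fell in cow, and 2 of 7 rose and 1 fell in pig, beside the background shares just given, with medians of 0.25 and 0.05 (-0.09 with median of ratios scaling and -0.01 with quantile normalisation in pig). EED, the subunit that binds methylated H3K27, rose in cow from 5.27 RPM to 221 RPM in the morula and 70.5 RPM in the blastocyst, and in pig from 0 reads to 292 and 76.4 RPM. JARID2 rose in both species, reaching 355 RPM from 73.8 in cow and 341 RPM from 60.1 in pig, RBBP7 fell in cow from 375 to 71.6 RPM, and EZH1 fell in pig from 18.9 to 1.34 RPM. Of H3K36 methyltransferases 2 of 7 rose in cow and 1 of 6 in pig, with 0 lower in both and medians of 0.13 and -0.03 (0.08 with scaling to non-mitochondrial gene reads and 0.07 with quantile normalisation in pig). SETD2, the main writer of trimethyl marks on H3K36, rose from 29.0 to 242 RPM in cow, with 574 RPM at the 8-16 cell stage, and from 18.4 to 203 RPM in pig. NSD1 rose in cow from 54.4 to 497 RPM, and cow SETMAR went from 19.3 through 2.82 in the morula to 28.1 RPM. In pig NSD3 went from 227 through 39.0 to 93.8 RPM and NSD2 from 20.7 through 4.66 to 10.5 RPM, both lowest in the morula.

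**Figure D4:**
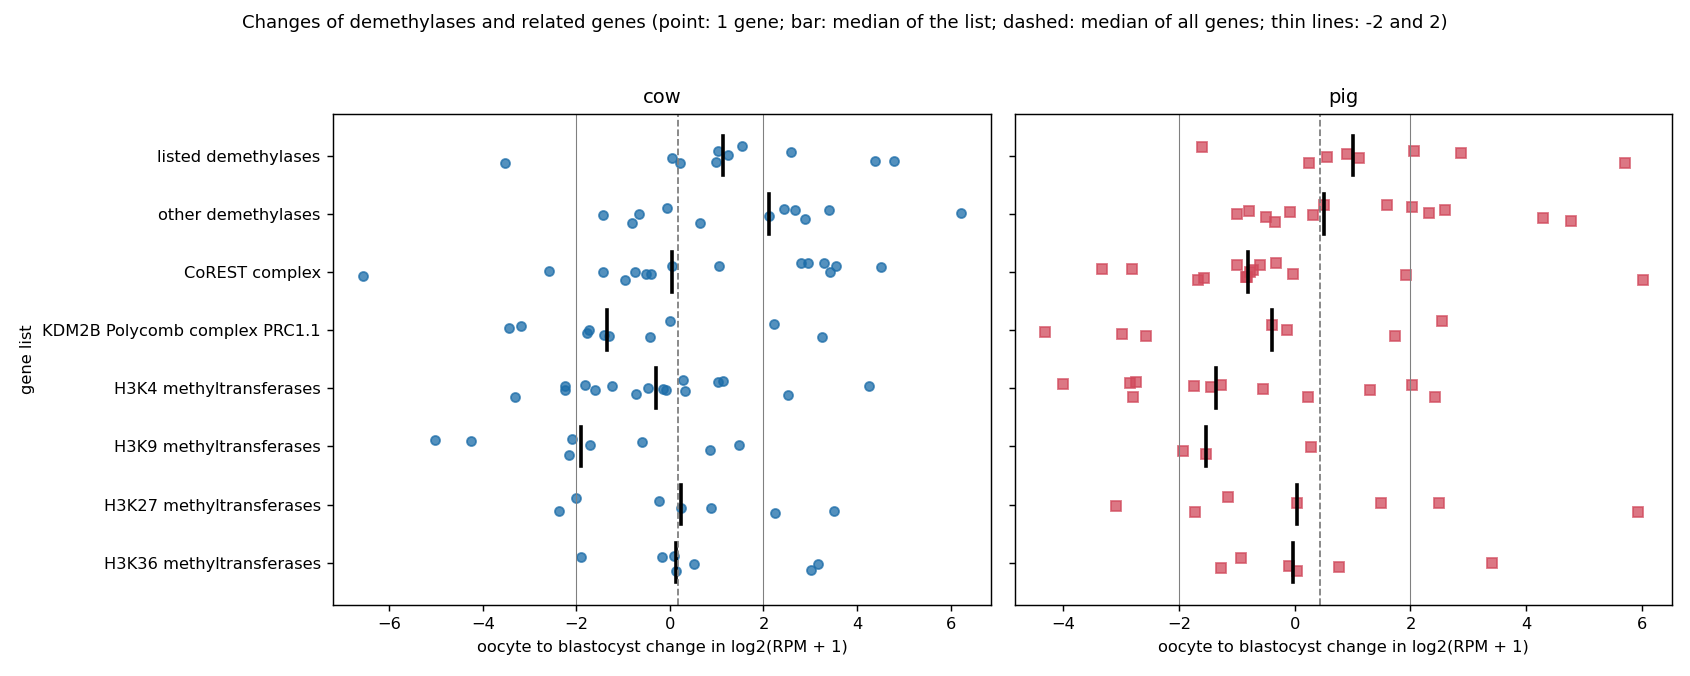
Change of log2(RPM + 1) from oocyte to blastocyst for each compared gene (points) of the listed demethylases and 7 related lists, in cow and pig. Black bars are list medians, the dashed line is the median of all genes (0.18 in cow, 0.43 in pig), and thin lines mark -2 and 2. The listed demethylases have medians of 1.13 and 1.01 with points on both sides of 0, and H3K9 methyltransferases have medians of -1.90 over 8 genes and -1.54 over 3, the latter -0.03 over 5 genes with no minimum level.

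The genes with the most similar courses were ranked by the root mean square difference of log2(RPM + 1), each profile centred on its species mean. This covers 10 libraries and 7527 shared symbols, or 5 cow libraries and 11140 symbols for KDM1B and KDM6B, and such likeness says nothing of shared function. Nearest to KDM5B were ZNRF1 (0.48), DHX9 (0.49) and CUL2 (0.53). Nearest to KDM5A were MIB1 (0.19), KIF1B (0.22) and ZC3H13 (0.22). For KDM1A they were BRAF (0.19), MAP2K4 (0.23) and RNF216 (0.25), and for KDM1B they were TMEM109 (0.14), DNAJA4 (0.15) and MBD4 (0.16), of which MBD4 is a glycosylase of DNA mismatches at methylated sites. KDM2B had LDLRAD4 (0.40), GTF2IRD1 (0.48) and EXD2 (0.51). KDM3A had PANK3 (0.17), NEK7 (0.24) and FUCA1 (0.25), KDM4A had GRB2 (0.33), LDAH (0.34) and HMGB1 (0.37), and KDM4C had OSBPL11 (0.22), NUBPL (0.31) and E2F6 (0.35). KDM6B had EMD (0.11), AMPH (0.13) and CNPY4 (0.16). KDM4B stayed below the minimum of 5 RPM in cow and was not ranked, and none of the named genes is itself a member.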

How the data were processed

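Total RNA of 10 libraries was isolated with PicoPure, amplified with Ovation RNA-Seq V2 and made into libraries with 8 PCR cycles, per the labels' protocols. Trim Galore 0.6.4, HISAT2 2.1.0 and the builds UMD3.1 (cow) and Sscrofa11.1 (pig) are named in the submitters' processing notes, without roles. The counting tool, the annotation, strand handling and removal of duplicate reads are not given in the sources used here. The authors deposited 1 table of log2 values per species. Between 99.98% and 100% of the values above the lowest of a column lay within 0.1 read of a whole number of reads, so the values are log2 RPM, with 0 reads written as 0.9 of a read. Reads, totals and RPM were recovered from these steps with Python 3.11.15, numpy 2.4.6, pandas 2.3.3 and scipy 1.17.1. Changes are differences of log2(RPM + 1) with the deposited value for 0 reads; levels print 0 reads as such. Calculations were checked on simulated data.

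Members were matched by symbol, taking of repeated symbols the row with the highest mean. The members and lists were chosen with earlier results of these data known. All members are named, and of each related list and species the 3 genes whose levels ranged most widely, with RING1 named in addition. With 1 library per group no test was possible. Alternatives changed the call threshold, pseudocount, minimum level, scaling, depth, treatment of repeated symbols and, chosen after seeing the data, 0 reads as 0 RPM.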

Additional observations from a re-analysis of the deposited data

Results flagged for a closer look

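At 11 changes the cow and pig values had opposite signs with intervals of the fold that excluded no change in both species. All 11 had opposite signs under 3 other scalings too, although those of KDM1A from the 2-4 cell to the 8-16 cell libraries then changed places with median of ratios scaling (0.07 in cow, -0.03 in pig). With 1 library per stage the differences themselves were not tested.

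KDM5A, the H3K4 demethylase, had opposite signs at 3 of them. Its changes were 0.52 in cow and -0.44 in pig between the 2-4 cell and 8-16 cell libraries, 0.29 and -0.72 from there to the morula, and 0.99 and -1.61 from oocyte to blastocyst.

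KDM4C, the H3K9 and H3K36 demethylase, had changes of 0.41 in cow and -0.48 in pig from the oocyte to the 2-4 cell stage, -0.67 and 0.82 at the next step, and -1.15 and 0.58 from the morula to the blastocyst. Its paralog KDM4A had changes of -0.67 in cow and 0.90 in pig between the 2-4 cell and 8-16 cell libraries, and 0.26 and -1.26 from the morula to the blastocyst.

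The change of KDM2B was 2.07 in cow and -0.72 in pig from the morula to the blastocyst, and the cow value is the one among the 22 that met the call. KDM1A had changes of -0.28 in cow and 0.24 in pig between the 2-4 cell and 8-16 cell libraries, and -0.88 and 0.35 from the morula to the blastocyst.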

How the results depend on the processing

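The threshold and the pseudocount moved the counts of called members. At a threshold of 1 instead of 2 the cow counts were 1, 5, 5 and 5 at the 4 steps and 7 from oocyte to blastocyst, and the pig counts were 2, 4 and 2 at the last 3 steps and 5 from oocyte to blastocyst. At that threshold 11.96%, 62.9%, 42.0%, 56.9% and 70.4% of all cow genes were called in the same order, and 25.4%, 56.4%, 59.8% and 72.5% of all pig genes. A pseudocount of 0.1 RPM gave 2 cow members at the step to the morula, beside 23.7% of all genes. A pseudocount of 5 RPM gave 0 cow members at the step to the blastocyst, beside 9.82%. In pig it gave 0 at the first step and 1 at the step to the morula, beside 1.065% and 11.8%. At the pig step to the blastocyst it gave 0, beside 13.7%. The minimum level, the scaling, equal depth, repeated symbols and 0 reads as 0 RPM left the counts within 1.5 times.

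Of 16 called changes of single members, 16 were kept with a pseudocount of 0.1 RPM, quantile normalisation, non-mitochondrial scaling and 0 reads as 0 RPM, 15 with median of ratios scaling and 15 at equal depth (pig KDM4C from oocyte to blastocyst was lost in both), and 10 with a pseudocount of 5 RPM. A pseudocount of 0.1 RPM added 2 calls, both of cow KDM4B next to its 0 reads. Depth limits KDM4B, cow KDM6B and the oocyte values of KDM5B most. No paired analysis was possible because each group had 1 library.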
